A study of Mus musculus with 6 samples.

Results

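The genes of oxidative phosphorylation (OXPHOS), which encode the respiratory chain and the ATP synthase of the mitochondrion, were examined in the prefrontal cortex (PFC) of mice after repeated social defeat (RSD) stress. They were taken by symbol from the deposited mRNA table and comprised the Nduf, Sdh, Uqcr, Cyc1, Cox4 to Cox8 and Atp5 genes of the nucleus and the mt- genes of the mitochondrial genome. The rule took 101 of the 12559 gene symbols in the table, 89 encoded in the nucleus and 12 in the mitochondrion. Of the nuclear-encoded genes, 43 belonged to complex I, 4 to complex II, 9 to complex III, 16 to complex IV and 17 to complex V. Of the mitochondrially encoded genes, 6 belonged to complex I, 1 to complex III, 3 to complex IV and 2 to complex V, and mt-Nd6 and Cox8b were not analysed here.

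A symbol is not always a subunit. Among the complex I symbols, 7 were assembly factors (Ndufaf1 to Ndufaf7), which help to build the enzyme and are not part of it. Ndufa4 was counted with complex I by its symbol, although its protein is now placed in complex IV. Cox7a2l, which takes part in joining complexes III and IV into supercomplexes, was counted with complex IV. Atp5s and Atp5sl were counted with complex V by their symbols, and the protein of Atp5sl, now called Dmac2, is known in human cells as an assembly factor of complex I.

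PFC tissue was sequenced from 3 mice after RSD and from 3 control mice, all male C57BL/6 animals 6 to 8 weeks old. RSD mice were exposed in their home cage, on consecutive nights, to an aggressive male CD-1 mouse, a large outbred strain used as intruder, and mice were chosen for sequencing by anxiety-like behavior in the elevated plus maze. Control mice had no intruder and lived in another cage in another room, so RSD cannot be told apart from cage or room. Each library came from 1 mouse, ribosomal RNA was depleted and strand was kept. Expression was deposited as FPKM, fragments scaled to transcript length and to all mapped fragments. The FPKM total over all mRNAs differed between mice, so genes were also compared with the libraries scaled to one another. The FPKM of all mRNA transcripts of a symbol were summed (274 of 32870 transcripts for the OXPHOS genes).

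Complexes I and II feed electrons from NADH and succinate into coenzyme Q, complex III passes them to cytochrome c and complex IV to oxygen, while complexes I, III and IV pump the protons that drive ATP synthesis by complex V. All complexes but the second combine subunits translated in the cytosol from nuclear genes with a few subunits made inside the mitochondrion, so both genomes have to supply RNA for 1 enzyme. Neurons draw most of their ATP from this pathway, mainly for ion pumping and synaptic transmission. Nuclear OXPHOS genes share binding sites for the transcription factors NRF1, GABP (an ETS factor) and YY1, with PGC-1α as a coactivator, whereas the mitochondrial genome is read by its own RNA polymerase into long transcripts that are cut into single messages.

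Promoters from 250 bases before to 50 bases after the gene start were taken from RefSeq (build GRCm38.p6) and matched 71 of the 89 nuclear-encoded genes by symbol. The NRF1 core, GCGCA and GCGC with any 1 base between them, was found on either strand in 19 of the 71 (26.8%), against 5.19% of all 27025 genes with a promoter and 11.6% of the 9473 of these in the mRNA table. The ETS core CCGGAAGT was found in 5 (7.04%, against 4.31% of all genes and 8.77% of those in the mRNA table) and the YY1 core AAGATGGCG in 7 (9.86%, against 1.64% and 3.49%). Matches were counted on both strands and no site was required to be free of another motif. The 4 promoters below belong to genes whose values are described further on, 3 of them with more than 1 NRF1 core and Ndufs7 with a YY1 core, and are written 5′ to 3′ on the strand of the gene with the matched cores in capitals. They lie at chr5:115348909-115349208, minus strand (Cox6a1), chr13:74350191-74350490, minus strand (Sdha), chr9:108936398-108936697, plus strand (Uqcrc1) and chr10:80249199-80249498, plus strand (Ndufs7). In the deposited data Ndufs7 begins at position 80249121, upstream of the stretch shown, so that stretch is not the promoter of its most upstream transcript.
Cox6a1: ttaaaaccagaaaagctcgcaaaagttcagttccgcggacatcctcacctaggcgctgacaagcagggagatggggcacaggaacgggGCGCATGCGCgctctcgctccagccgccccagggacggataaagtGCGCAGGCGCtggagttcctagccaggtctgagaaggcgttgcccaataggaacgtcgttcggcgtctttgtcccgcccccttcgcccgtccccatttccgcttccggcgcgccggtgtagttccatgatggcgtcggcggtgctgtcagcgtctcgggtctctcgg
Sdha: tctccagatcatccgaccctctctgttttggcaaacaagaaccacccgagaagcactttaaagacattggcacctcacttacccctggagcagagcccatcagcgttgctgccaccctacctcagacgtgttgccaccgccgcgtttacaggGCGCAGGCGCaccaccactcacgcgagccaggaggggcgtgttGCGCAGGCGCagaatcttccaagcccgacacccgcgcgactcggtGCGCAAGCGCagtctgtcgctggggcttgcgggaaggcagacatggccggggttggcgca
Uqcrc1: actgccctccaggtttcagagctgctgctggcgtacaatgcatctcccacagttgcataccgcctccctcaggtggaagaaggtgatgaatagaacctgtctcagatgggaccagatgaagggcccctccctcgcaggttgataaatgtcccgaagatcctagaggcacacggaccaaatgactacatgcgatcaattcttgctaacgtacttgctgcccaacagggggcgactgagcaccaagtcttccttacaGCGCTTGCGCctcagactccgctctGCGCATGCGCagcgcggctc
Ndufs7: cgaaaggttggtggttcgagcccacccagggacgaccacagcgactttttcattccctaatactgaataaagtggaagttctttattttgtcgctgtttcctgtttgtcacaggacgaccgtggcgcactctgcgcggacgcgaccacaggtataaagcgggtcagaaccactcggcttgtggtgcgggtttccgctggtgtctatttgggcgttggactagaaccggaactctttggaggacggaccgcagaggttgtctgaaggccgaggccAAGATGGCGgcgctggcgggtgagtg
The promoters of Cox6a1 and Uqcrc1 held 2 NRF1 cores each and that of Sdha held 3. Among the genes with an NRF1 core that could be tested, the median log2 fold change of RSD over control was 0.01 (n = 19), and among those without one it was -0.04 (n = 49).

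One control library stood apart in these genes. Control replicate 1 was the highest of the 6 mice for 72 of the 89 nuclear-encoded OXPHOS genes and the lowest for 8 of the 12 mitochondrially encoded genes. Among genes that passed the expression filter (0.5 FPKM or more in at least 3 mice) it was the highest for 71 of 86 nuclear-encoded OXPHOS genes (82.6%), against 33.6% of all 12277 genes. The median ratio of control replicate 1 to the mean of the other controls was 1.75 for the nuclear-encoded genes, 0.713 for the mitochondrially encoded genes and 1.17 for all genes tested. Control replicate 2 was at the other end, the lowest for 49 nuclear-encoded genes and the highest for 8 mitochondrially encoded genes. Results are therefore given with all mice and without control replicate 1.

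Other measures of the libraries were compared beside these values. Sequencing depth relative to control replicate 1, read from the smallest steps between low values, was 0.908, 0.940 and 0.966 in RSD mice, against 1, 0.877 and 0.859 in control mice, and total mRNA was 158966, 158186 and 149323 summed FPKM in RSD mice, against 168805, 135141 and 140437 summed FPKM in control mice. Excitatory neuron markers summed to 434, 406 and 387 FPKM in RSD mice, against 397, 66.6 and 74.1 FPKM in control mice, and most of that sum was Slc17a7, the vesicular glutamate transporter of cortical neurons, at 327, 331 and 311 FPKM in RSD mice, against 311, 0 and 0.005500 FPKM in control mice. The other 5 excitatory markers were above 0 in every mouse, as were all markers of interneurons (102.8 to 186 FPKM in sum), astrocytes (269.7 to 545 FPKM), oligodendrocyte precursors (15.4 to 31.8 FPKM) and microglia (45.4 to 75.03 FPKM). Oligodendrocyte markers, none of them at 0, summed to 255, 231 and 281 FPKM in RSD mice, against 218, 133 and 178 FPKM in control mice, every RSD mouse above every control. Endothelial markers summed to 20.8, 17.9 and 19.99 FPKM in RSD mice, against 38.5, 35.6 and 20.7 FPKM in control mice, mural and meningeal markers to 20.5 to 33.2 FPKM, blood cell markers to 264, 217 and 143 FPKM in RSD mice, against 107, 181 and 249.5 FPKM in control mice, and striatal markers to 20.4 to 41.6 FPKM. Choroid plexus markers stayed between 0.453 and 3.75 FPKM, and the 1 of 4 olfactory bulb markers in the table had 0.5999, 0.583 and 0.672 FPKM in RSD mice, against 0.556, 0.5602 and 0.492 FPKM in control mice. In this tissue fewer cells of a type cannot be told apart from less RNA per cell, and the part of these differences in the results was not tested.

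Summed over all nuclear-encoded genes, OXPHOS mRNA did not differ between the groups by more than the spread of the controls. The sum was 2441, 2482 and 2233 FPKM in RSD mice, against 3610.2, 1854 and 2052 FPKM in control mice. The RSD mice lay close together at 2385 ± 133 FPKM, while the controls averaged 2505 ± 962 FPKM (SD, n = 3 each), and the SD came to 5.58% of the mean in RSD mice and 38.4% in control mice. The log2 ratio of the means was -0.07 with all mice and 0.29 without control replicate 1. As a share of all mRNA FPKM, the nuclear-encoded genes took 1.54, 1.57 and 1.496 percent in RSD mice, against 2.14, 1.37 and 1.46 percent in control mice, so control replicate 1 remained the highest on that scale as well.

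The same arrangement of mice was seen in each complex. Complex I genes of the nucleus summed to 779.7, 784 and 705 FPKM in RSD mice, against 1174, 597 and 663 FPKM in control mice. Complex II genes summed to 121, 129 and 125 FPKM in RSD mice, against 171, 98.6 and 108 FPKM in control mice, and complex III genes to 239, 217 and 187 FPKM in RSD mice, against 298, 134 and 169 FPKM in control mice. In all 3 complexes control replicate 1 was the highest and control replicate 2 the lowest, with every RSD mouse between them. For complex IV the sums were 617, 609.7 and 552 FPKM in RSD mice, against 899.8, 477 and 515 FPKM in control mice. Complex V genes summed to 685, 742 and 665 FPKM in RSD mice, against 1067, 547 and 597 FPKM in control mice. Every RSD mouse thus lay below control replicate 1 and above both other controls in the sum of each of the 5 complexes. The log2 ratio of means was -0.10 for complex I, -0.01 for complex II, 0.09 for complex III, -0.09 for complex IV and -0.08 for complex V, and 0.26, 0.27, 0.49, 0.26 and 0.29 in that order without control replicate 1.

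**Figure D1:**
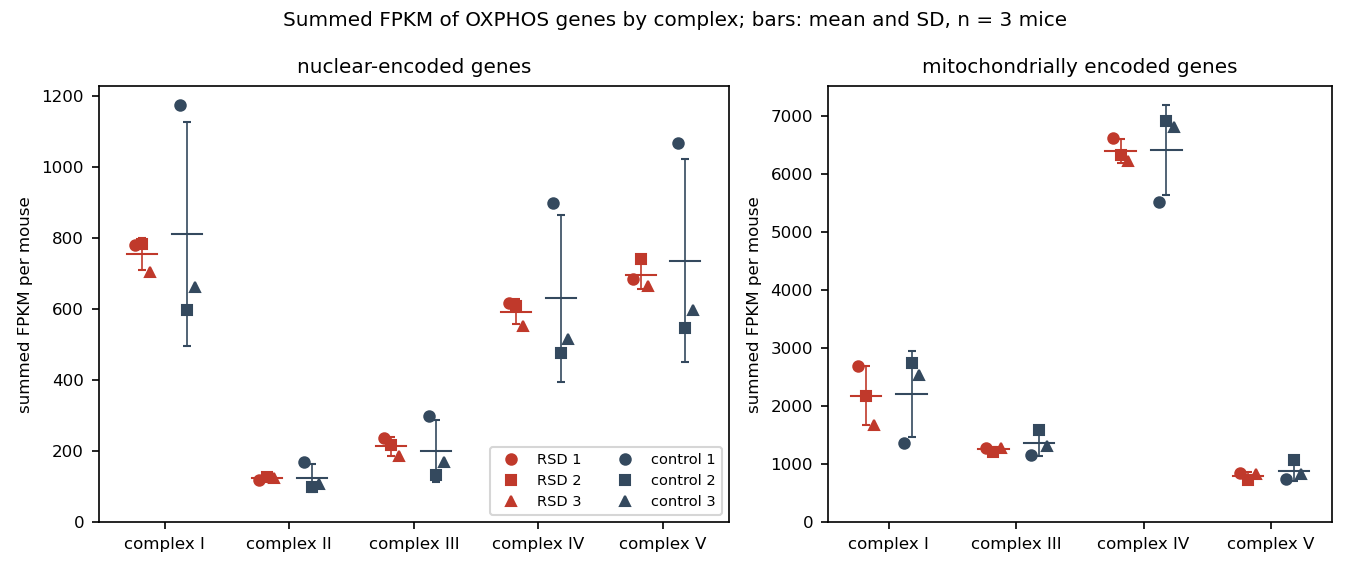
Summed FPKM (vertical axes) of the nuclear-encoded genes of complexes I to V (left) and the mitochondrially encoded genes of complexes I, III, IV and V (right), with 1 point per mouse, a bar for the mean and an error bar for the SD of 3 mice. In the nuclear-encoded panel control replicate 1 is the highest in each complex (1174 FPKM for complex I) and the RSD mice lie between it and the other controls, while in the mitochondrially encoded panel control replicate 1 is the lowest for complexes I, III and IV.

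Gene by gene, no member passed the test. Limma on log2(FPKM + 0.1), adjusted over all genes tested, called 0 of 98 OXPHOS genes at an adjusted p under 0.05, where 0.0733% of all genes (9 of 12277) were called. At an unadjusted p of at most 0.05, 0 of 86 nuclear-encoded genes were higher and 0 lower in RSD mice, against 6.21% of all genes higher and 2.74% lower. With the libraries scaled to one another, by the median, by quantiles or to equal mRNA sums, 0 of the 86 were higher and 4 to 6 were lower at that threshold, while 5.64% to 6.03% of all genes were higher and 4.92% to 5.84% lower under the same scalings. The smallest p among the nuclear-encoded genes was 0.0508, for Ndufaf1 (adjusted p = 0.557). The median log2 fold change was -0.02 for the nuclear-encoded genes and 0.03 for all genes tested, and 39 of 86 nuclear-encoded genes had a fold change above 0, where 54.5% of all genes did. Groups did not overlap for 2 nuclear-encoded genes with every RSD mouse above every control (9.39% of all genes) and for 2 with every RSD mouse below (6.66% of all genes).

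Without control replicate 1 most nuclear-encoded genes had a fold change above 0. Then 70 of 86 had a log2 fold change above 0 (60.7% of all genes), the median was 0.20 (0.09 for all genes), and 22 of 86 were higher and 0 lower in RSD mice at an unadjusted p of at most 0.05, where 16.4% of all genes were higher and 3.01% lower. None of the 86 had an adjusted p under 0.05 in that limma fit, in which 0.456% of all genes were called. Control replicate 1 was picked because it was the highest mouse in these same genes, so a rise without it follows from the choice. Leaving out control replicate 2 instead moved the median of the nuclear-encoded genes further below 0. The 22 were spread over the complexes, with 2 of 7 complex I core subunits, 7 of 29 accessory subunits, 0 of 7 assembly factors, 1 of 4 genes of complex II, 2 of 9 of complex III, 2 of 14 of complex IV and 8 of 16 of complex V. Among the 86 genes, 34 (39.5%) had all RSD mice between control replicate 1 and the other controls, against 8.92% of all genes. The SD of log2 values was larger in control mice than in RSD mice for 75 of 86 genes (87.2%, against 65.7% of all genes), with a median SD of 0.197 in RSD mice and 0.588 in control mice.

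**Figure D2:**
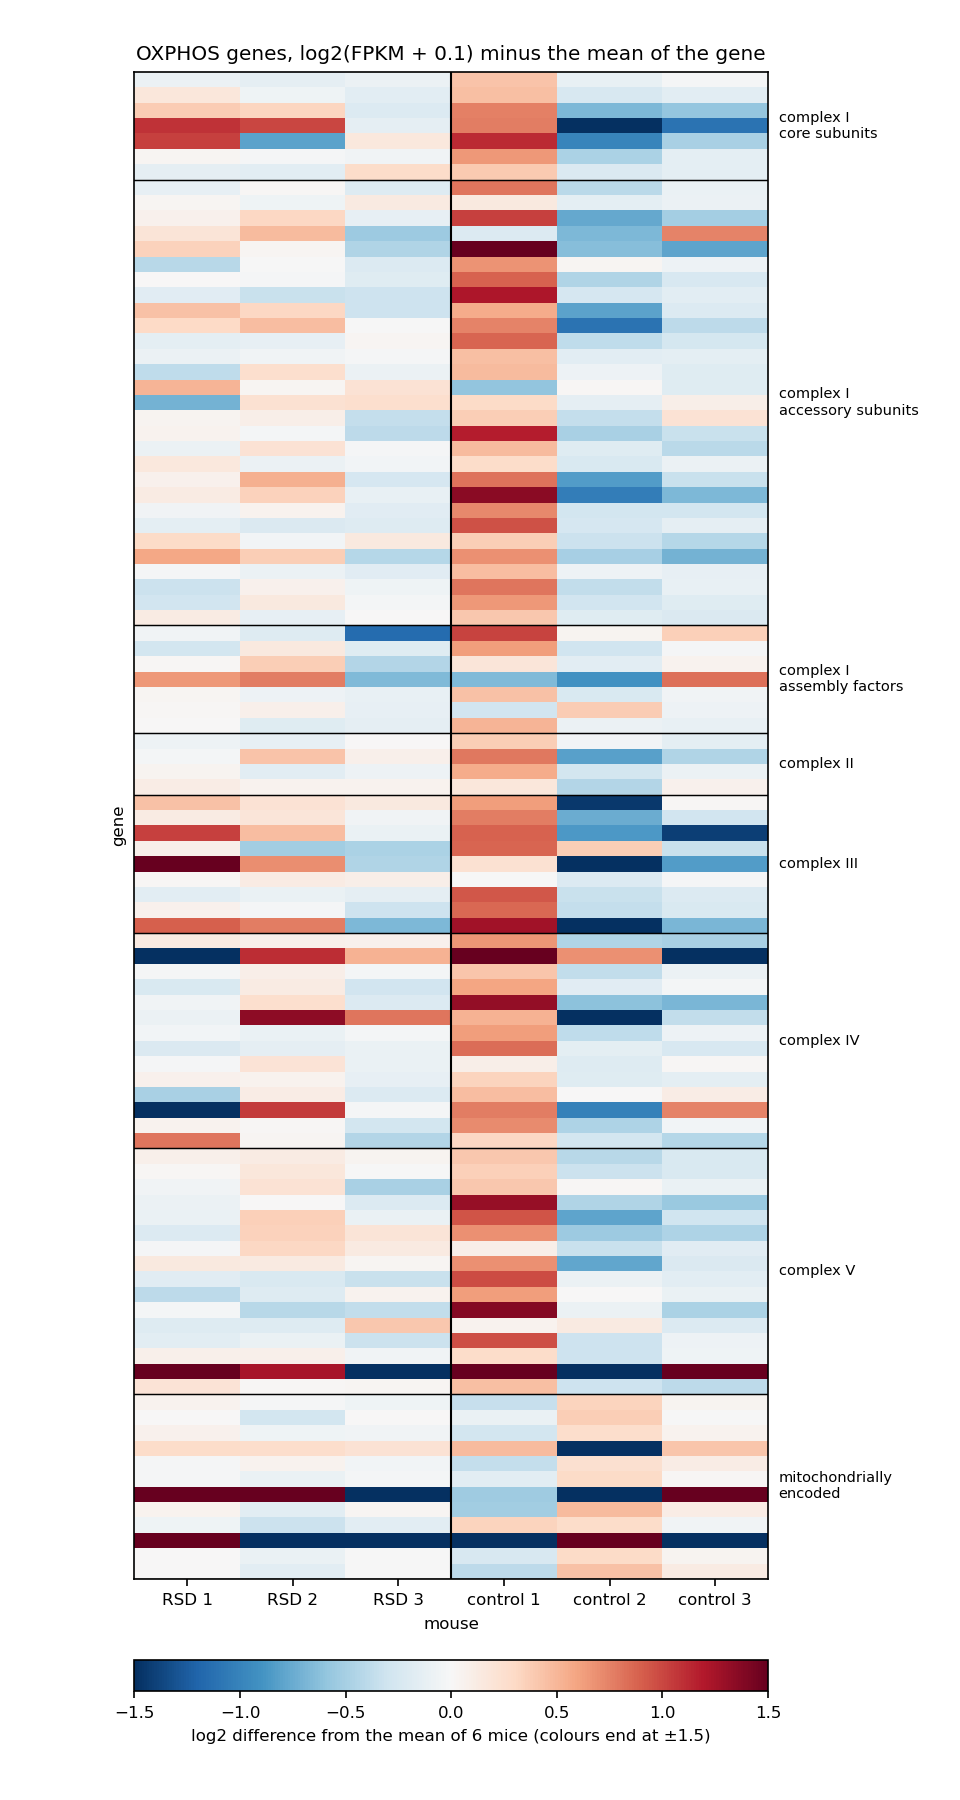
Heat map of the 98 OXPHOS genes tested (down the page, by group) in the 6 mice (across, RSD then control), with colour for log2(FPKM + 0.1) minus the mean of the gene and colours ending at ±1.5. The column of control replicate 1 is red for most nuclear-encoded genes and blue for most mitochondrially encoded genes, of which it was the lowest mouse for 8 of 12.

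The core subunits of complex I hold its flavin and iron-sulfur clusters and carry the electrons. Ndufs1, which holds iron-sulfur clusters of the NADH arm, had 38.7, 37.6 and 38.6 FPKM in RSD mice, against 55.6, 38.2 and 40.5 FPKM in control mice. It varied by little outside control replicate 1, and its log2 fold change was -0.20 ± 0.16 (SE), or -0.04 without that mouse. Ndufs7 (chr10:80249121-80256794, plus strand), the subunit with the last iron-sulfur cluster before coenzyme Q and the YY1 core shown above, had 29.4, 27.9 and 12.6 FPKM in RSD mice, against 23.6, 4.51 and 6.35 FPKM in control mice. RSD replicates 1 and 2 and control replicate 1 were high and the other 3 mice were low, so the groups overlapped, and the log2 fold change was 1.30 ± 0.68 (SE) (adjusted p = 0.603), or 2.00 without control replicate 1. For Ndufs3, a subunit beside the coenzyme Q site, the values were 29.7, 28.4 and 19.8 FPKM in RSD mice, against 38.4, 14.3 and 15.2 FPKM in control mice, and RSD mice lay between control replicate 1 and the other controls (log2 fold change 0.33 ± 0.42 (SE), or 0.79 without control replicate 1). The core subunits Ndufs8, Ndufv1 and Ndufv2 had log2 fold changes of 0.25, -0.02 and -0.02, or 0.87, 0.30 and 0.18 without control replicate 1.

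Accessory subunits surround the core of complex I and stabilize it. Among the 29, Ndufb9 and Ndufa8 had the highest means. Ndufb9 had 47.6, 45.4 and 45.96 FPKM in RSD mice, against 102, 44.3 and 47.9 FPKM in control mice, with 5 of the mice within a narrow range and control replicate 1 far above them. Ndufa8 showed the same arrangement at 34.6, 35.2 and 39.2 FPKM in RSD mice, against 70.5, 29.3 and 31.9 FPKM in control mice. Their log2 fold changes were -0.37 ± 0.33 (SE) and -0.15 ± 0.35 (SE), and 0.01 and 0.25 without control replicate 1. Ndufb10 (chr17:24722060-24724478, minus strand), a subunit of the distal membrane arm, was an exception, with 14.1, 10.00 and 11.4 FPKM in RSD mice, against 6.498, 9.97 and 8.64 FPKM in control mice. Here control replicate 1 was the lowest mouse, and every RSD mouse was above every control, although RSD replicate 2 and control replicate 2 were almost level. The log2 fold change was 0.50 ± 0.21 (SE) (adjusted p = 0.558). Ndufa3 had 12.2, 16.4 and 14.2 FPKM in RSD mice, against 26.1, 16.8 and 15.6 FPKM in control mice and a log2 fold change of -0.42 ± 0.23 (SE), and Ndufa5 had 8.23, 7.33 and 7.41 FPKM in RSD mice, against 21.5, 7.76 and 8.301 FPKM in control mice and -0.54 ± 0.40 (SE), both carried by control replicate 1, without which they were -0.19 and -0.07. Over all 29 the fold changes ran between -0.54 and 0.50 with a median of -0.10, and 13 were above 0. Ndufa2 and Ndufb7 had among the largest excesses of control replicate 1 over the other controls, 4.67 and 4.65 times.

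The assembly factors of complex I were the lowest group in level, between 2.28 and 11.5 FPKM in mean. Ndufaf1 (chr2:119655446-119662821, minus strand), a chaperone of the membrane arm, had 4.99, 4.52 and 2.29 FPKM in RSD mice, against 10.6, 5.35 and 6.703 FPKM in control mice. Every RSD mouse was below every control, the nearest pair being RSD replicate 1 and control replicate 2, and the log2 fold change was -0.94 ± 0.38 (SE) (adjusted p = 0.557), or -0.67 without control replicate 1. Ndufaf4, another membrane arm factor, had 5.398, 5.86 and 2.12 FPKM in RSD mice, against 2.12, 1.77 and 6.11 FPKM in control mice, so that 3 mice were high and 3 low with both groups among each (log2 fold change 0.50 ± 0.60 (SE), or 0.29 without control replicate 1). Ndufaf5, known in human cells to hydroxylate Ndufs7, had 11.6, 10.8 and 10.6 FPKM in RSD mice, against 15.5, 9.69 and 11.01 FPKM in control mice. Ndufaf7, a methyltransferase, had 8.74, 7.64 and 7.93 FPKM in RSD mice, against 12.5, 8.18 and 8.08 FPKM in control mice. Neither differed by more than the spread of the controls, with log2 fold changes of -0.11 ± 0.19 (SE) and -0.21 ± 0.20 (SE), or 0.09 and -0.01 without control replicate 1. The log2 fold changes of the 6 factors other than Ndufaf4 were below 0, and the median over all 7 was -0.11, but without control replicate 1 the median was 0.04 and 4 of the 7 were above 0.

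Complex II, succinate dehydrogenase, is encoded by nuclear genes alone and links the tricarboxylic acid cycle to the respiratory chain. Sdha, the flavoprotein with the NRF1 cores shown above, had 54.2, 52.3 and 57.3 FPKM in RSD mice, against 73.7, 55.4 and 51.6 FPKM in control mice. Sdhb, the iron-sulfur subunit, had 33.1, 45.4 and 35.6 FPKM in RSD mice, against 58.3, 19.1 and 24.6 FPKM in control mice. Sdhd, a membrane anchor, had 22.1, 21.2 and 21.3 FPKM in RSD mice, against 22.97, 15.03 and 21.4 FPKM in control mice. The spread in controls was small for Sdha and Sdhd and large for Sdhb, where control replicate 1 was 2.66 times the mean of the others. Log2 fold changes were -0.13 ± 0.16 (SE) for Sdha, 0.32 ± 0.42 (SE) for Sdhb and 0.14 ± 0.18 (SE) for Sdhd, and 0.03, 0.79 and 0.26 without control replicate 1. Sdhc, the other anchor, had a log2 fold change of -0.13, or 0.11 without that mouse.

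In complex III the catalytic subunits are cytochrome b (mitochondrially encoded), Cyc1 and the Rieske protein Uqcrfs1, and Uqcrc1 and Uqcrc2 are the large core proteins. The core proteins parted from each other. Uqcrc2 (chr7:120635176-120659524, plus strand) had 57.6, 62.03 and 60.3 FPKM in RSD mice, against 56.7, 49.2 and 56.1 FPKM in control mice. Every RSD mouse was above every control, by a small margin, with control replicates 1 and 3 almost level, and the log2 fold change was 0.15 ± 0.10 (SE) (adjusted p = 0.652), or 0.19 without control replicate 1. Uqcrc1 (chr9:108936633-108949623, plus strand), with the NRF1 cores shown above, had 26.2, 9.79 and 4.38 FPKM in RSD mice, against 7.07, 1.73 and 3.33 FPKM in control mice. RSD replicate 1 was far above the rest and RSD replicate 3 was below control replicate 1, so the log2 fold change of 1.56 ± 0.78 (SE), the largest of the nuclear-encoded genes, had an adjusted p of 0.592. Uqcr10, a small subunit beside cytochrome c1, had 43.4, 45.4 and 38.6 FPKM in RSD mice, against 67.9, 23.8 and 32.7 FPKM in control mice. Uqcrb, which binds near the coenzyme Q sites, had 1.78, 1.14 and 1.18 FPKM in RSD mice, against 3.16, 2.203 and 1.32 FPKM in control mice. They lay on opposite sides of 0, with log2 fold changes of 0.17 ± 0.38 (SE) and -0.61 ± 0.36 (SE) (0.60 and -0.33 without control replicate 1), and the groups overlapped for both. Over the 9 genes the median was 0.17 and 6 were above 0, and without control replicate 1 the median was 0.60, the highest of the complexes. Uqcrq had the largest excess of control replicate 1 over the other controls among all members, 5.17 times, and Cyc1 and Uqcrfs1 had log2 fold changes of 0.54 and -0.26, or 0.98 and 0.13 without control replicate 1.

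**Figure D3:**
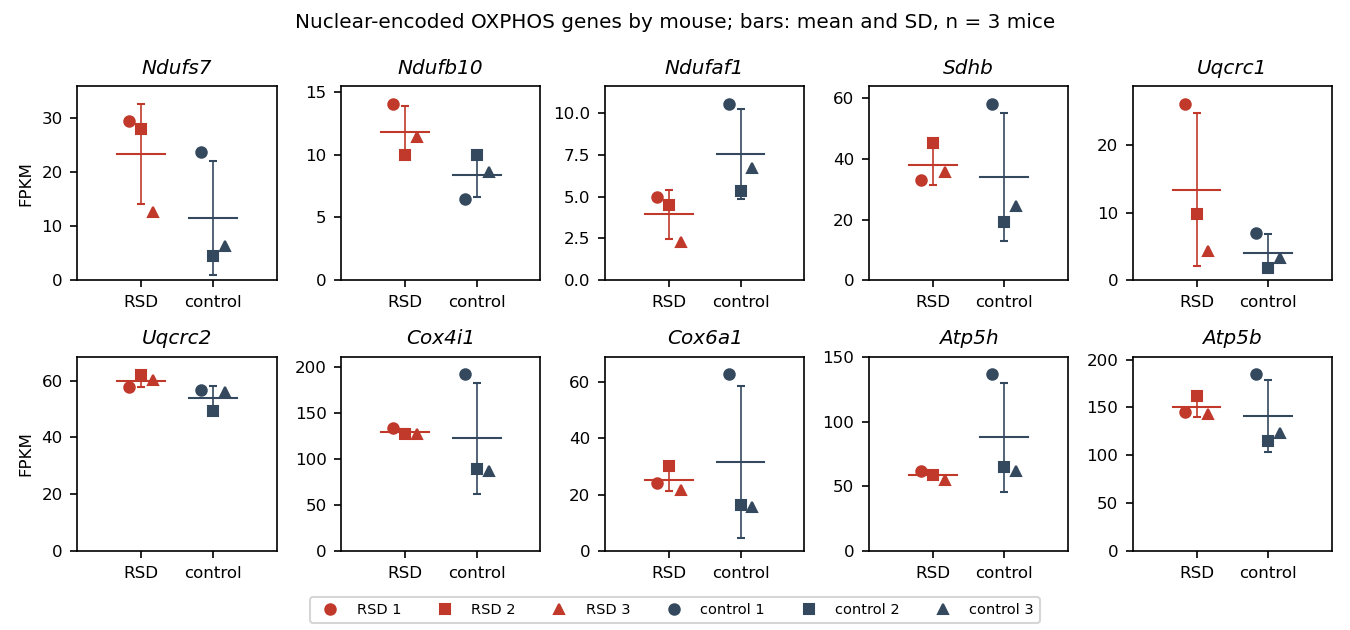
FPKM (vertical axes, from 0) of 10 nuclear-encoded genes, 1 panel each, with 1 point per mouse, RSD left and control right, a bar for the mean and an error bar for the SD of 3 mice. The groups do not overlap for Ndufb10, Ndufaf1, Uqcrc2 and Atp5h, and control replicate 1 (round control point) is far above the other controls for Cox4i1 (192 FPKM) and Cox6a1 (62.8 FPKM).

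Complex IV, cytochrome c oxidase, has nuclear-encoded subunits that come in paralogs for different tissues. Cox4i1, the widely expressed form of subunit 4, had 134, 128 and 127 FPKM in RSD mice, against 192, 88.9 and 86.8 FPKM in control mice. It was the most abundant nuclear-encoded gene of the complex, and the RSD mice were close to each other while the controls spanned a wide range around them. Its log2 fold change was 0.18 ± 0.32 (SE) with all mice and 0.56 without control replicate 1, where it had the smallest adjusted p of the OXPHOS genes (0.0580, limma). Cox6b1, which lies at the dimer interface on the side of cytochrome c, had 86.5, 83.3 and 87.5 FPKM in RSD mice, against 137, 68.2 and 84.7 FPKM in control mice, and a log2 fold change of -0.11 ± 0.26 (SE), or 0.17 without control replicate 1. Cox7b had 20.3, 30.7 and 24.8 FPKM in RSD mice, against 39.3, 28.7 and 30.7 FPKM in control mice and -0.38 ± 0.20 (SE). Cox5b, the zinc-binding subunit, had 8.35, 10.6 and 7.96 FPKM in RSD mice, against 14.8, 8.64 and 9.61 FPKM in control mice and -0.26 ± 0.24 (SE). In Cox7b and Cox5b the RSD mice reached lower than any control, but the ranges overlapped, and without control replicate 1 the log2 fold changes were -0.25 and -0.03. Cox8a, a small membrane subunit, had 77.7, 45.6 and 32.9 FPKM in RSD mice, against 55.03, 36.7 and 33.1 FPKM in control mice, with RSD replicate 1 high and RSD replicate 3 level with the lowest control.

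The tissue paralogs kept a wide gap in level in every mouse. Cox4i2, the paralog known from lung, had 0, 0.7305 and 0.453 FPKM in RSD mice, against 1.05, 0.5201 and 0 FPKM in control mice. Cox6a1, the liver form and the most common form in brain, had 24.3, 30.02 and 21.8 FPKM in RSD mice, against 62.8, 16.3 and 15.6 FPKM in control mice. Cox6a2, the form of heart and muscle, had 0.337, 1.08 and 0.716 FPKM in RSD mice, against 0.5698, 0 and 0.261 FPKM in control mice. Cox6a1 was thus higher than Cox6a2 in each of the 6 mice, and Cox6a2 was listed at 0 in control replicate 2. Cox6a1 had a log2 fold change near 0 with all mice (0.65 without control replicate 1), and Cox6a2 had 1.37 ± 0.80 (SE) at values around or below 1 FPKM (adjusted p = 0.619). Cox6b2, the testis form, had 0.304, 0.187 and 0.414 FPKM in RSD mice, against 0.576, 1.05 and 0 FPKM in control mice. Cox7a2, the widely expressed form, had 56.4, 65.7 and 53.1 FPKM in RSD mice, against 60.3, 49.6 and 57.7 FPKM in control mice. Cox7a1, the form of heart and muscle, had 0.389, 0.225 and 0 FPKM in RSD mice, against 0.845, 0.361 and 0.617 FPKM in control mice. Cox6b2 and Cox7a1 did not pass the expression filter and were not tested, and Cox7a2 had a log2 fold change of 0.06 ± 0.13 (SE).

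Complex V, the ATP synthase, joins a catalytic head to a rotor in the membrane. The catalytic subunits Atp5b and Atp5a1 were the most abundant nuclear-encoded OXPHOS genes. Atp5b had 145, 162 and 143 FPKM in RSD mice, against 184, 115 and 123 FPKM in control mice, and Atp5a1 had 140.0, 145 and 136 FPKM in RSD mice, against 177, 99.7 and 113 FPKM in control mice. For both, the RSD mice lay between control replicate 1 and the other controls, with log2 fold changes of 0.12 ± 0.20 (SE) and 0.16 ± 0.22 (SE), or 0.33 and 0.40 without control replicate 1. Atp5h (chr11:115415689-115419962, minus strand), subunit d of the stator stalk, had 61.7, 59.1 and 55.1 FPKM in RSD mice, against 137, 65.1 and 61.9 FPKM in control mice. Every RSD mouse was below every control, the nearest pair being almost level, and the log2 fold change of -0.48 ± 0.32 (SE) (adjusted p = 0.651) was -0.11 without control replicate 1. Atp5g2, one of the genes for the rotor ring, had 18.7, 23.6 and 20.8 FPKM in RSD mice, against 20.2, 15.03 and 16.9 FPKM in control mice and a log2 fold change of 0.28 ± 0.16 (SE), or 0.39 without control replicate 1. Atp5j, coupling factor 6, had 19.99, 22.98 and 27.2 FPKM in RSD mice, against 40.7, 26.5 and 24.6 FPKM in control mice and -0.36 ± 0.23 (SE), or -0.14 without that mouse. The groups overlapped for both.

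A few complex V genes were listed at 0 in some mice. Atp5d, the delta subunit of the central stalk, had 0, 0 and 0 FPKM in RSD mice, against 0.992, 1.84 and 0 FPKM in control mice, and was not tested. It was thus listed at 0 in every RSD mouse and in control replicate 3, and no fold is given. Atp5s had 2.85, 2.21 and 0 FPKM in RSD mice, against 3.11, 0.0424 and 2.68 FPKM in control mice, with RSD replicate 3 at 0 and control replicate 2 near it. Over the 16 genes of complex V tested, log2 fold changes ran between -0.54 and 0.28 with a median of 0.04, and 9 were above 0. Without control replicate 1 the median was 0.36 and 12 were above 0.

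**Figure D4:**
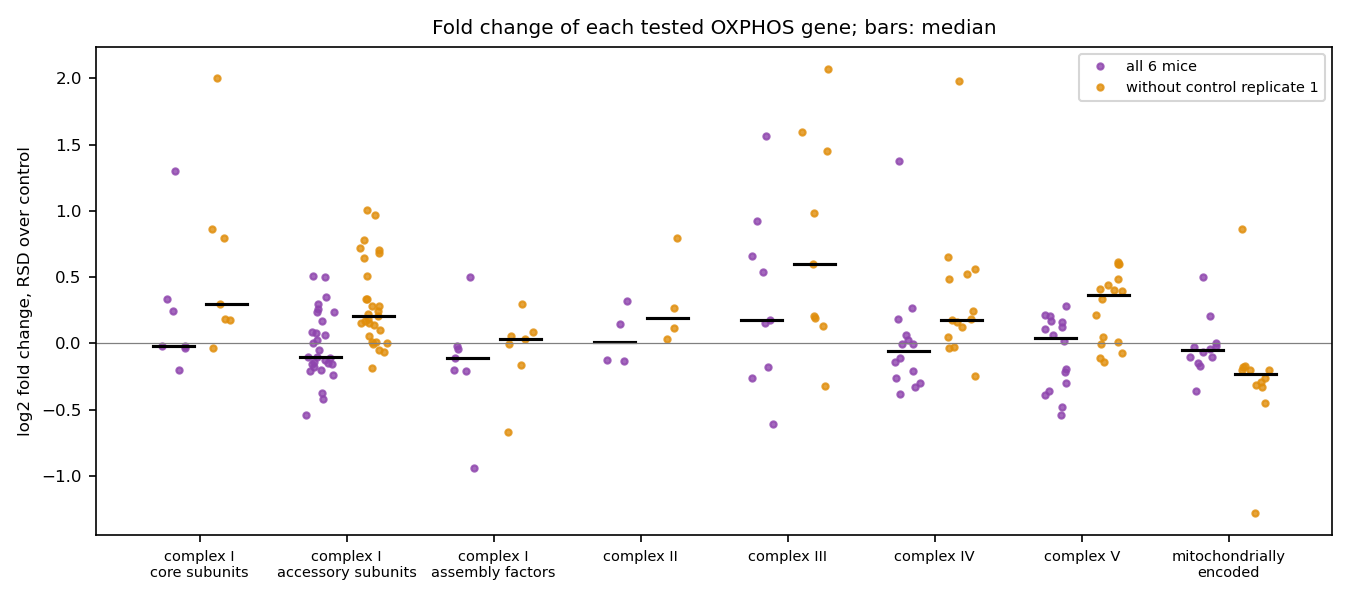
Log2 fold change of RSD over control (vertical axis) for each tested OXPHOS gene by group (across), with purple points for all 6 mice, orange points without control replicate 1 and a black bar for the median. With all mice the medians lie between -0.11 and 0.17, and without control replicate 1 the medians of all nuclear-encoded groups are above 0 while that of the mitochondrially encoded genes is -0.23.

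The mitochondrially encoded genes ran against the nuclear-encoded ones across the control mice. Their sum was 11465, 10450.5 and 10019.5 FPKM in RSD mice, against 8808, 12326 and 11536 FPKM in control mice, at means of 10645 ± 742 FPKM in RSD mice and 10889.8 ± 1846 FPKM in control mice (SD, n = 3 each). Control replicate 1 was the lowest mouse and control replicate 2 the highest, with the RSD mice between. As a share of all mRNA FPKM they took 7.21, 6.61 and 6.71 percent in RSD mice, against 5.22, 9.12 and 8.21 percent in control mice. The median log2 fold change was -0.05 with all mice and -0.23 without control replicate 1, with 3 of 12 genes and 1 of 12 above 0.

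By complex, the mitochondrially encoded sums were largest for complex IV. Its 3 catalytic subunits summed to 6627, 6329.8 and 6229.9 FPKM in RSD mice, against 5519.8, 6914 and 6825 FPKM in control mice. The complex I genes summed to 2699.9, 2172 and 1683 FPKM in RSD mice, against 1368, 2743 and 2548 FPKM in control mice, and those of complex V to 851, 731 and 829.9 FPKM in RSD mice, against 749.8, 1073 and 842 FPKM in control mice. RSD and control mice overlapped in each of these sums, and the control spread exceeded the RSD spread, with an SD of 12.2% of the mean in controls and 3.23% in RSD mice for complex IV. The log2 ratio of means was -0.02 for complex I, -0.11 for complex III, -0.01 for complex IV and -0.14 for complex V, and -0.28, -0.21, -0.10 and -0.25 in that order without control replicate 1.

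Most mitochondrially encoded genes were even across the RSD mice. mt-Co1, the catalytic subunit of complex IV that binds heme and copper and the most abundant OXPHOS gene, had 4276, 3909 and 3944 FPKM in RSD mice, against 3363, 4887 and 4243 FPKM in control mice. mt-Co3, another core subunit of complex IV, had 1512, 1587 and 1480.1 FPKM in RSD mice, against 1192, 1805 and 1652 FPKM in control mice, and mt-Cytb, cytochrome b of complex III, had 1287, 1217 and 1277 FPKM in RSD mice, against 1169.9, 1597 and 1321 FPKM in control mice. All 3 were lowest in control replicate 1 and highest in control replicate 2, with log2 fold changes of -0.03 ± 0.20 (SE), 0.00 ± 0.20 (SE) and -0.10 ± 0.16 (SE). Of the complex I genes, mt-Nd2 had 544, 468 and 535 FPKM in RSD mice, against 364, 727 and 565 FPKM in control mice, mt-Nd5 had 564, 506 and 559 FPKM in RSD mice, against 427, 762 and 614 FPKM in control mice, and mt-Nd4l had 506, 468 and 502 FPKM in RSD mice, against 425, 616 and 518 FPKM in control mice. These membrane-arm subunits, which form the proton channels, followed the same order of mice, with log2 fold changes of -0.04 ± 0.27 (SE), -0.11 ± 0.23 (SE) and -0.06 ± 0.17 (SE). Without control replicate 1, mt-Nd5 was lower in RSD mice at an unadjusted p of 0.038 (-0.33 on the log2 scale). mt-Atp6, the proton channel of complex V, had 247, 236 and 228 FPKM in RSD mice, against 188, 301 and 246 FPKM in control mice, and mt-Atp8, which overlaps it on the genome, had 604, 495 and 602 FPKM in RSD mice, against 562, 772 and 596 FPKM in control mice. Their log2 fold changes were -0.02 ± 0.19 (SE) and -0.17 ± 0.18 (SE).

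mt-Nd3 did not follow that order. It had 91.6, 76.2 and 85.4 FPKM in RSD mice, against 120.0, 115 and 91.7 FPKM in control mice, so control replicate 1 was here the highest mouse and every RSD mouse was below every control, the nearest pair being almost level. The log2 fold change was -0.36 ± 0.15 (SE), with an unadjusted p of 0.048 and an adjusted p of 0.557 (limma), and -0.29 without control replicate 1. It was the single mitochondrially encoded gene at an unadjusted p of at most 0.05 with all mice, where 2.74% of all genes were lower.

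**Figure D5:**
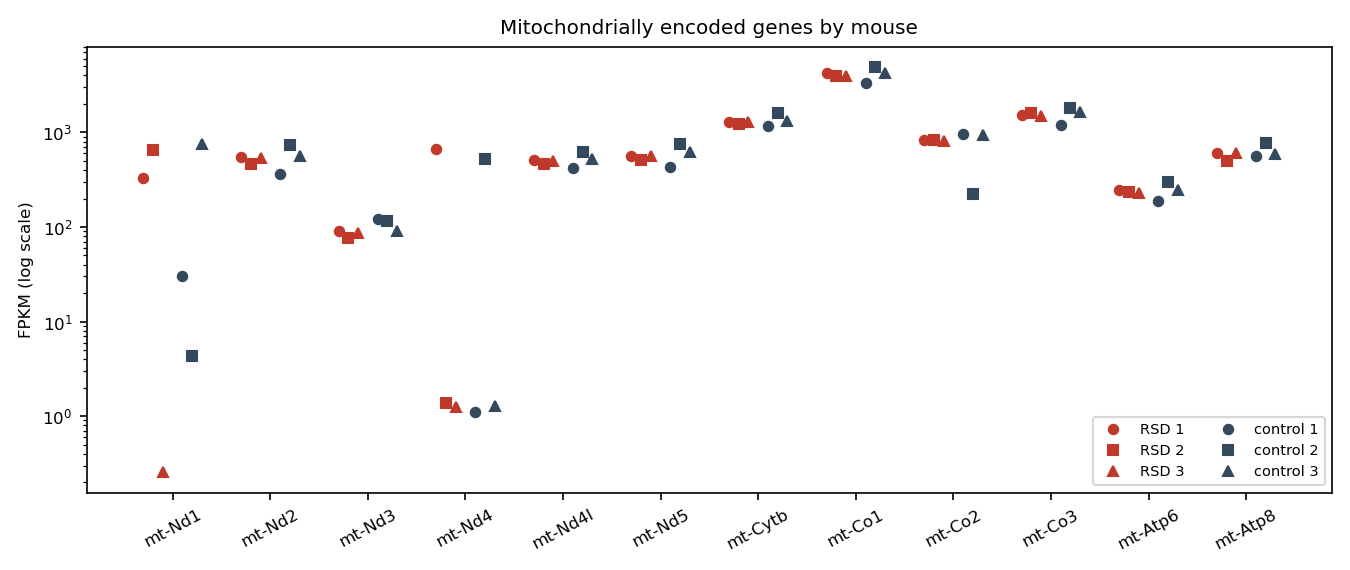
FPKM (vertical axis, log scale) of the 12 mitochondrially encoded genes (across), with 1 point per mouse, RSD in red left of control in blue. Most genes have 6 points close together, while mt-Nd1 and mt-Nd4 are spread over a wide range within both groups (0.254 to 758 FPKM for mt-Nd1), and mt-Co2 is low in control replicate 2 (223 FPKM).

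The values of mt-Nd1 and mt-Nd4 jumped between mice in both groups, and mt-Co2 was low in control replicate 2 alone. mt-Nd1 (chrMT:2751-3707, plus strand) had 328, 652 and 0.254 FPKM in RSD mice, against 30.6, 4.31 and 758 FPKM in control mice. mt-Nd4 (chrMT:10167-11544, plus strand) had 666, 1.38 and 1.24 FPKM in RSD mice, against 1.11, 519 and 1.27 FPKM in control mice, and mt-Co2 (chrMT:7013-7696, plus strand) had 839, 833 and 806 FPKM in RSD mice, against 965, 223 and 930.2 FPKM in control mice. These are neighbors of genes that were even in the same mice, and mt-Nd4l, which overlaps mt-Nd4 by a few bases, did not jump. The table of lncRNAs lists assembled transcripts on the same strand over these genes. The transcript MERGE.47660.1, which spans positions 1 to 11544 of the mitochondrial genome, had 771, 2451 and 97.8 FPKM in RSD mice, against 66.6, 35.5 and 2102 FPKM in control mice. NONMMUT071578.2, over positions 1149 to 3703, had 34.7, 5637 and 24.1 FPKM in RSD mice, against 1529.8, 46.1 and 9798 FPKM in control mice, and MERGE.47660.10, over positions 1149 to 7696, had 0, 461 and 0 FPKM in RSD mice, against 0.544, 48.6 and 0 FPKM in control mice. The values of these transcripts also differed widely between mice within both groups, and how fragments were divided between them and the genes was not tested. Whether NONMMUT071578.2 holds ribosomal RNA left after depletion was not tested either. With mt-Nd1, mt-Nd4 and mt-Co2 left out, a choice made after seeing the data, the sum of the other 9 genes was 9631, 8963 and 9212 FPKM in RSD mice, against 7811, 11580.3 and 9846 FPKM in control mice, and control replicate 1 was still the lowest and control replicate 2 the highest.

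The ratio of mitochondrially to nuclear-encoded OXPHOS mRNA was similar in the RSD mice and spread widely in the controls. It was 4.697, 4.21 and 4.49 FPKM per FPKM in RSD mice, against 2.44, 6.65 and 5.62 FPKM per FPKM in control mice, with means of 4.46 ± 0.244 in RSD mice and 4.903 ± 2.19 in control mice (SD, n = 3 each). Control replicate 1 was below all RSD mice and the other controls were above them all. The log2 ratio of means was -0.14 with all mice and -0.46 without control replicate 1. The same held within complexes. For complex I the ratio was 3.46, 2.77 and 2.39 FPKM per FPKM in RSD mice, against 1.17, 4.59 and 3.84 FPKM per FPKM in control mice. For complex IV it was 10.7, 10.4 and 11.3 FPKM per FPKM in RSD mice, against 6.13, 14.5 and 13.3 FPKM per FPKM in control mice. The complex I ratio includes mt-Nd1 and mt-Nd4, which jumped between mice, and the complex IV ratio includes mt-Co2. Neither ratio was recomputed without these genes. Complex III (5.396, 5.61 and 6.84 FPKM per FPKM in RSD mice, against 3.92, 11.9 and 7.795 FPKM per FPKM in control mice) and complex V (1.24, 0.985 and 1.25 FPKM per FPKM in RSD mice, against 0.703, 1.96 and 1.41 FPKM per FPKM in control mice) had the same order, with control replicate 1 lowest and control replicate 2 highest. Without mt-Nd1, mt-Nd4 and mt-Co2 the overall ratio was 3.95, 3.61 and 4.12 FPKM per FPKM in RSD mice, against 2.16, 6.25 and 4.797 FPKM per FPKM in control mice.

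Single transcripts were fitted beside the gene sums, since the FPKM of a gene is divided among its isoforms. Limma over 29471 mRNA transcripts called 0 of 249 transcripts of the OXPHOS genes at an adjusted p under 0.05 (0.163% of all transcripts were called), with 3 higher and 5 lower in RSD mice at the unadjusted threshold of 0.05 (4.16% and 2.62% of all). Over 23840 isoform shares it called 0 of 209 (0.143% of all), with 3 higher and 0 lower at the unadjusted threshold (2.79% and 2.99% of all). Among transcript levels, the smallest p belonged to ENSMUST00000144285, a short isoform of Ndufb10, at 4.92, 5.98 and 2.04 FPKM in RSD mice, against 0.776, 1.197 and 0.614 FPKM in control mice. Every RSD mouse was above every control, and the log2 fold change was 2.11 ± 0.47 (SE) for its level (adjusted p = 0.467) and 1.61 ± 0.52 (SE) for its share of the gene (adjusted p = 0.7897). ENSMUST00000105364, an isoform of Ndufs7 that starts upstream of the others, had 19.4, 12.1 and 6.41 FPKM in RSD mice, against 5.27, 2.901 and 1.59 FPKM in control mice, above every control in RSD mice (1.94 ± 0.57 (SE), adjusted p = 0.668). ENSMUST00000126925 of Atp5sl had 0.787, 0.655 and 1.47 FPKM in RSD mice, against 0.123, 0.224 and 0.115 FPKM in control mice, and its log2 fold change was 2.03 ± 0.46 (SE) in level and 1.86 ± 0.48 (SE) in share (adjusted p = 0.506 and 0.609).

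The isoforms of Cox6a1 did not move together. ENSMUST00000137766 had 2.07, 1.76 and 6.12 FPKM in RSD mice, against 7.75, 11.8 and 10.5 FPKM in control mice, with every RSD mouse below every control (log2 fold change -1.76 ± 0.50 (SE), adjusted p = 0.643). The other isoform, ENSMUST00000040154, had 22.2, 28.3 and 15.6 FPKM in RSD mice, against 55.02, 4.55 and 5.12 FPKM in control mice, where the RSD mice lay between control replicate 1 and the other controls. ENSMUST00000132588 of Ndufa5 had 0.5997, 0.409 and 1.06 FPKM in RSD mice, against 1.85, 1.49 and 1.79 FPKM in control mice and a log2 fold change of -1.28 ± 0.35 (SE) (adjusted p = 0.633), again with no overlap. By share, ENSMUST00000026887 of Atp5c1 had a log2 difference of 1.15 ± 0.35 (SE) and ENSMUST00000173182 of Ndufa7 one of -1.26 ± 0.53 (SE). ENSMUST00000026743, the isoform of Uqcrc1 with the longest span, carried most of that gene's spread at 23.2, 6.76 and 1.58 FPKM in RSD mice, against 4.37, 0 and 0 FPKM in control mice.

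Other genes of the pathway were counted in the same fit, from lists of 4 to 21 genes, and 0 genes of any list had an adjusted p under 0.05 (limma). The median log2 fold change was 0.04 for 7 complex I assembly factors beyond the Ndufaf genes, -0.21 for 4 of complex II, 0.10 for 6 of complex III, -0.02 for 21 of complex IV and 0.09 for 5 of complex V, against 0.03 for all genes. Without control replicate 1 these medians were 0.05, -0.13, 0.31, 0.14 and 0.42 in that order, against 0.09 for all genes. At an unadjusted p of at most 0.05 the assembly factors of complex IV gave 1 gene higher (Cox14, log2 fold change 0.88 ± 0.35 (SE)), and the other 4 lists gave 0 in either direction. Of all genes, 6.21% were higher and 2.74% lower at that threshold. The 2 with the smallest p of each list included Foxred1 (-0.34 ± 0.15 (SE)) and Nubpl (-0.54 ± 0.25 (SE)) for complex I, Sdhaf4 (-0.65 ± 0.38 (SE)) and Sdhaf3 (-0.32 ± 0.22 (SE)) for complex II, Ttc19 (0.60 ± 0.28 (SE)) and Lyrm7 (-0.61 ± 0.38 (SE)) for complex III, Cox20 (-0.56 ± 0.25 (SE)) for complex IV, and Usmg5 (-0.32 ± 0.36 (SE)) and Atpaf1 (0.62 ± 0.70 (SE)) for complex V.

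Electron carriers and coenzyme Q synthesis had 0 of 13 genes higher and 1 lower at an unadjusted p of at most 0.05, with a median log2 fold change of -0.02, or 0.13 without control replicate 1. The 1 was Etfa, a subunit of the electron transfer flavoprotein that brings electrons from fatty acid oxidation, at 6.98, 5.88 and 5.25 FPKM in RSD mice, against 12.2, 7.67 and 8.25 FPKM in control mice (-0.61 ± 0.22 (SE), adjusted p = 0.546, or -0.40 without control replicate 1). Cycs, cytochrome c itself, had 11.6, 12.2 and 12.5 FPKM in RSD mice, against 9.27, 10.9 and 11.2 FPKM in control mice (0.21 ± 0.12 (SE)). Both were without overlap between the groups, where 9.39% of all genes had every RSD mouse above every control and 6.66% every RSD mouse below. The tricarboxylic acid cycle list had 0 of 18 genes at that threshold and a median of 0.03 (0.17 without control replicate 1), and summed to 614, 604 and 609.5 FPKM in RSD mice, against 739, 465 and 513 FPKM in control mice. Glycolysis had 0 of 16 and a median of 0.13 (0.29 without control replicate 1), and summed to 2233, 2248 and 2181 FPKM in RSD mice, against 2522, 1621 and 1827 FPKM in control mice. In both sums control replicate 1 was the highest mouse and the other controls were the lowest, as for the nuclear-encoded OXPHOS genes. Idh3b (0.92 ± 0.62 (SE)) was among the genes with the smallest p of the cycle, and Gpi1 (0.18 ± 0.10 (SE)) and Aldoa (0.37 ± 0.23 (SE)) had the smallest p of glycolysis.

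Of the 11 regulators, 1 was higher and 2 were lower in RSD mice at the unadjusted threshold (6.21% and 2.74% of all genes), with a median log2 fold change of 0.10, or 0.09 without control replicate 1. Ppargc1a, which encodes the coactivator PGC-1α, had 4.22, 4.47 and 4.404 FPKM in RSD mice, against 0.822, 2.69 and 1.59 FPKM in control mice. The RSD mice were close to each other and above every control, and control replicate 1 had the lowest value. The log2 fold change was 1.45 ± 0.40 (SE) (limma, adjusted p = 0.532), or 1.04 without control replicate 1. Over all genes, every RSD mouse was above every control for 9.39% and below every control for 6.66%. Gabpb1, a subunit of the ETS factor GABP, had 4.07, 2.63 and 2.88 FPKM in RSD mice, against 7.11, 5.85 and 5.82 FPKM in control mice, with every RSD mouse below every control (-0.97 ± 0.20 (SE), adjusted p = 0.471). Gabpb2, its paralog, had 1.48, 1.67 and 1.199 FPKM in RSD mice, against 2.21, 2.28 and 1.96 FPKM in control mice, also without overlap (-0.55 ± 0.19 (SE), adjusted p = 0.546). For upkeep and transcription of mitochondrial DNA 1 of 13 genes was higher and 0 lower, with a median of -0.05, or -0.06 without control replicate 1. The 1 was Polrmt, the mitochondrial RNA polymerase, at 4.66, 5.47 and 2.32 FPKM in RSD mice, against 2.81, 1.27 and 1.46 FPKM in control mice (1.12 ± 0.43 (SE), adjusted p = 0.553), where RSD replicate 3 lay below control replicate 1. Tfam, which packs mitochondrial DNA and starts its transcription, had 3.48, 3.99 and 3.57 FPKM in RSD mice, against 6.26, 4.16 and 4.44 FPKM in control mice (-0.40 ± 0.19 (SE), adjusted p = 0.585, or -0.22 without control replicate 1), with every RSD mouse below every control.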

How the data were processed

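The members and the other gene lists were chosen with earlier results of these data known. The authors depleted ribosomal RNA, sequenced stranded paired-end libraries, assembled transcripts with Cuffmerge and Cuffcompare and deposited 1 FPKM value per transcript and mouse. The submitters' processing notes name Bowtie 0.12.2 and mm9, but the positions in the deposited tables match GRCm38, which is used here. Read counts are unknown, so depth is given as a ratio from the smallest steps between low FPKM values. The deposited log2 fold changes and p-values of each transcript were not used. How fragments shared with pseudogenes or nuclear copies of mitochondrial genes were assigned is not given in the sources used here.

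FPKM was summed by symbol over 32870 mRNA transcripts, and 12277 genes that reached 0.5 FPKM in 3 or more of the 6 mice were tested with limma 3.58.1 (R 4.3.3) on log2(FPKM + 0.1) with a mean-variance trend and Benjamini-Hochberg adjustment, two-sided, at an adjusted p of 0.05. A pseudocount of 0.1 understates the fold change of low genes. P-values measure the spread between 3 mice per group. Of the 101 members, 98 were tested. Sums, ratios and medians over members have no p. The model was tested on simulated data before use.

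Genes named were all mitochondrially encoded members, per nuclear group the 2 highest in mean FPKM and the 3 with the smallest p, members listed at 0 in some mouse and at 1 FPKM or more in another, the complex IV paralog pairs, the 5 transcripts and shares with the smallest p, and the 2 of each other list with the smallest p, some of which are not reported here. Ndufs8, Ndufv1, Ndufv2, Ndufa2, Ndufb7, Sdhc, Cyc1, Uqcrfs1, Uqcrq and Gabpb2 were named after their values were seen.

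Alternatives were pseudocounts of 0.01 and 1, other filters, no trend, 4 scalings, removal of the trend over genomic span (lowess span 0.3), leaving out each mouse, a block for the replicate number, transcripts of the locus listed as lncRNA added to the sum, the Ndufaf genes left out, and Ndufa4 counted with complex IV. Promoters were searched with Python 3.11.15.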

Additional observations from a re-analysis of the deposited data

Results flagged for a closer look

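The table of lncRNAs, which the comparisons of OXPHOS genes do not use, held 21 transcripts in loci of nuclear-encoded OXPHOS genes that passed the expression filter, and for 2 of them every RSD mouse was above every control. MERGE.23250.2, an assembled transcript over the whole span of Atp5c1 (the gamma subunit of the ATP synthase) on the same strand, had 9.55, 10.4 and 14.3 FPKM in RSD mice, against 3.02, 3.17 and 7.99 FPKM in control mice, a log2 ratio of means of 1.27. NONMMUT019414.2, at the 5′ end of Ndufs4 (an accessory subunit of complex I) on the same strand, had 0.875, 0.980 and 0.893 FPKM in RSD mice, against 0.792, 0.773 and 0.512 FPKM in control mice, a log2 ratio of means of 0.40. For 0 of the 21 was every RSD mouse below every control. Among all 23640 transcripts listed as lncRNA that passed the filter, every RSD mouse was above every control for 3.49% and below for 7.49%. The mRNA of Atp5c1 had a log2 fold change of -0.22 and that of Ndufs4 one of -0.18 (-0.07 and 0.01 without control replicate 1), both with overlapping groups. Over the mitochondrial genome the same table listed 10 transcripts past the filter, of which 0 had every RSD mouse above every control and 5 had every RSD mouse below. NONMMUT071600.2 lay on the minus strand at positions 11720 to 14070, opposite to mt-Nd5 and beyond its end. It had 89.5, 73.5 and 81.3 FPKM in RSD mice, against 226, 137 and 112 FPKM in control mice. NONMMUT071594.2, opposite to mt-Nd3 and the end of mt-Co3, had 5.66, 5.14 and 5.43 FPKM in RSD mice, against 16.5, 9.48 and 6.03 FPKM in control mice. NONMMUT071574.2, over positions 70 to 1024 before the first of the members, had 7452, 7396 and 6757 FPKM in RSD mice, against 14903, 9094 and 8910.2 FPKM in control mice. Control replicate 1 was the highest mouse for these 3. The other 2 were NONMMUT071601.2 and NONMMUT071605.2, on the strand of the members. How fragments were divided between these transcripts and the mRNAs of the same loci was not tested. Nor was it tested whether NONMMUT071600.2 holds fragments of mt-Nd6, or NONMMUT071574.2 ribosomal RNA left after depletion.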

How the results depend on the processing

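Of the summary results, 286 values under an alternative were counted as close to the value given and 26 as moved. A median or ratio counted as close if it shifted by no more than its pooled SD between mice, control replicate 1 included. That SD was 0.366 for the nuclear median, so its change from -0.02 to 0.20 without control replicate 1 counted as close. Some alternatives could not change some of the summaries, so these counts do not measure how stable the results are. The adjusted call stayed at 0 OXPHOS genes, transcripts and shares throughout. The number of nuclear-encoded genes lower in RSD mice at an unadjusted p of at most 0.05, 0 with all mice, was 1 with a pseudocount of 1, 4 with median scaling and with equal mRNA sums, 5 with quantile normalization, and 6 with equal sums over nuclear transcripts and with the trend over genomic span removed, settings under which 2.78% (pseudocount of 1) to 5.84% (quantile normalization) of all genes were lower. The mitochondrially encoded genes lower, 1 as given, came to 0 without the limma trend, with the span trend removed and with transcripts listed as lncRNA added, which also brought their median to -0.36. The cause was not tested. Quantile normalization put the median of all genes at -0.060.

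Leaving out 1 mouse gave 0 to 22 nuclear-encoded genes higher, 0 to 1 nuclear-encoded lower and 0 to 1 mitochondrially encoded lower, with 22 without control replicate 1, where 16.4% of all genes were higher. The nuclear median ran between -0.20 (without control replicate 2) and 0.20 (without control replicate 1), and the log2 mitochondrial to nuclear ratio between -0.46 (without control replicate 1) and 0.15 (without control replicate 2). Among 47 named genes, 61 of 844 values had the other sign, 11 of them without control replicate 1, and the smallest adjusted p was 0.0580 (Cox4i1, without control replicate 1, limma).

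The replicate number as a block gave 2 of 86 nuclear-encoded genes higher (7% of all genes), 1 lower (1.95% of all genes) and 0 mitochondrially encoded lower. Correlations of deviations from the group mean were 0.129, -0.0945 and 0.0961 for mice of the same number. For mice of different number they lay between -0.204 and 0.133. Deviations from a mean of 3 mice are tied to one another, so these values cannot tell whether mice of the same number were handled together. With 3 mice a group and control mice that spread widely, differences under the control spread were not detectable.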
